A study of Mus musculus with 96 samples.

Results

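The genes described here are 35 genes of brain endothelial cells and of the blood-brain barrier, out of 32594 genes listed in the count tables. They were taken by gene symbol, and all 35 symbols were found in both tables, 1 for each time point. By role they comprised 7 transporters (Slc2a1, Slco1a4, Slco1c1, Slc7a5, Abcb1a, Abcg2 and Mfsd2a) and 7 genes of junctions and adhesion (Cldn5, Ocln, Tjp1, Cdh5, Esam, Pecam1 and Icam2). A further 7 encode receptors or a receptor phosphatase (Flt1, Kdr, Tek, Tie1, Ptprb, Eng and Robo4), and 3 encode transcription factors (Erg, Sox17 and Sox18). The last 11 are 7 surface or secreted proteins (Itm2a, Ly6c1, Ly6a, Emcn, Vwf, Egfl7 and Cd34) and 4 genes linked to sprouting or to altered vessels (Plvap, Angpt2, Esm1 and Apold1).

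Bulk RNA was measured in the hippocampus, thalamus and hypothalamus on the injured side of the brain in male C57BL/6 mice. The mice were 8 to 10 weeks old when obtained, so that they were older when tissue was taken. Mice of the TBI groups received a craniectomy and a controlled cortical impact, while Sham mice had anaesthesia and a scalp incision only, so that the craniectomy and the impact cannot be told apart. CD is candesartan, a blocker of the angiotensin II type 1 receptor, given at 0.1 mg/kg per day from 6 h after surgery, and VH is its vehicle, saline with sodium carbonate. In the 3 days post injury (dpi) cohort the later doses were injections at 24 and 48 h, and in the 29 dpi cohort an osmotic pump was implanted at 24 h. Each of the 3 regions and both times held 4 groups (TBI + CD, TBI + VH, Sham + CD and Sham + VH) of 4 libraries each, 96 in all. The brains were perfused with saline before dissection. The labels do not say whether libraries of different regions came from the same animals, and p-values measure the spread between these libraries.

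The blood-brain barrier is formed by endothelial cells joined by tight junctions, in which claudin-5 and occludin span the membrane and ZO-1, the product of Tjp1, anchors them to the cytoskeleton. These cells feed the brain through carriers for glucose, large amino acids, thyroid hormone and lipids, and they expel drugs through efflux pumps. They also have little transport by vesicles, a state kept by the lipid carrier Mfsd2a, and they normally lack the fenestral diaphragm protein Plvap. VEGF receptors, the Tie receptors and their angiopoietin ligands control vessel growth and stability. In bulk tissue, fewer endothelial cells and less RNA per cell cannot be told apart.

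Libraries held between 6663629 and 38589791 counts, and only 1 gene of the 35, Esm1, had libraries with a count of 0. In the hippocampus Esm1 failed the filter on low counts at both times, with 0 to 14 counts per library at 3 dpi, and 34 of the 35 were tested. In the thalamus and hypothalamus all 35 were tested. Some hippocampal libraries stood apart in transcripts of the choroid plexus, the secretory tissue in the ventricles that lies against the hippocampus. At 3 dpi the summed level of 14 choroid plexus genes was 6785, 4428, 216 and 4737 CPM (counts scaled to a common library size with TMM factors) in the Sham + VH libraries. It was 27.8 to 177 CPM in TBI + VH, 66.3 to 124 CPM in Sham + CD, and 2744, 48.9, 26.7 and 177 CPM in TBI + CD. The common control group therefore differed from the other groups in this tissue as well as in injury or drug. Calls that rest on these libraries are given below with and without them, and without the 4 choroid-rich libraries of the hippocampus at 3 dpi (a summed level of 1000 CPM or more) the Sham + VH group is a single library, assumed to vary like the other groups.

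In Sham + VH hippocampus at 3 dpi the 35 genes spanned a wide range when CPM was divided by exon length. Itm2a, a membrane protein, was at 23.6 ± 2.22 CPM per kb (SD, n = 4) and Slc2a1, the glucose carrier GLUT1, at 18.5 ± 0.862 CPM per kb. Both held the upper ranks 1 and 2 in all 6 sets of region and time, with Slc2a1 above Itm2a in the thalamus. The thyroid hormone carrier Slco1c1 (13.8 ± 4.11 CPM per kb), Cldn5 (13.4 ± 2.21 CPM per kb) and the amino acid carrier Slc7a5 (12.6 ± 0.995 CPM per kb) followed, and their spreads overlapped. At the low end were Angpt2, an antagonist ligand of the Tie2 receptor, at 0.378 ± 0.175 CPM per kb, and Esm1, an endothelial proteoglycan, at 0.148 ± 0.085 CPM per kb.

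Injury in vehicle mice was examined first. In the hippocampus at 3 dpi, 3 of the 34 genes tested were called in TBI + VH against Sham + VH, 1 up and 2 down. Genes were called by edgeR's quasi-likelihood test where the FDR (false discovery rate) was below 0.05 and the log2 fold change exceeded 0.32 in size. Of all 16756 genes tested, 10.7% were called (8.99% up and 1.72% down). The gene that rose was Mfsd2a, and those that fell were Kdr, which encodes the main VEGF receptor of endothelium, and the tight junction gene Ocln. By sign, 9 of the 34 fold changes were positive, and their median was -0.14 beside -0.01 over all genes. Leaving out each library in turn gave 3 to 6 calls, with 6 without replicate 3 of Sham + VH.

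Mfsd2a (chromosome 4, 122946850 to 122961188, minus strand, GRCm38) was at 15.6, 20.2, 17.4 and 15.8 CPM in Sham + VH. In TBI + VH it was at 25.8, 24.4, 24.1 and 23.8 CPM. The 4 injured libraries were all above the 4 sham libraries, and the log2 fold change was 0.51 ± 0.08 (SE; FDR 0.000134). Mfsd2a was also high in TBI + CD, at 24.7, 26.8, 26.3 and 27.0 CPM, and low in Sham + CD, at 17.6, 15.9, 16.8 and 15.5 CPM. The log2 fold change of TBI + CD was 0.61 ± 0.08 against Sham + VH (FDR 1.82e-05) and 0.67 ± 0.08 against Sham + CD (FDR 4.9e-06). Every injured hippocampal library at 3 dpi thus lay above every sham library for this carrier, which takes up lysolipids that hold docosahexaenoic acid. Without the libraries rich in choroid plexus transcripts, the vehicle difference of Mfsd2a was 0.50 ± 0.10 on the log2 scale (FDR 0.0183). With a choroid plexus score as a covariate it was 0.43 ± 0.11 (FDR 0.04), and with that score and the replicate number as a block the call was lost at the same size (0.43, FDR 0.085).

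Kdr (chromosome 5, 75932827 to 75978458, minus strand) was at 15.3, 15.1, 10.4 and 18.3 CPM in Sham + VH and at 8.74, 7.65, 9.60 and 9.02 CPM in TBI + VH. The groups did not overlap, and the log2 fold change was -0.75 ± 0.17 (FDR 0.00583). Sham + CD libraries, which had no injury, were at 14.2, 7.98, 9.17 and 10.8 CPM. Among the Sham + VH libraries the lowest Kdr level was in the one with the low choroid plexus sum, but the choroid-rich library of TBI + CD, at 10.9 CPM, was not the highest of its group. With the choroid plexus score as a covariate the difference of Kdr was -0.48 ± 0.25 (FDR 0.394), and without the libraries rich in these transcripts it was -0.24 ± 0.25 (FDR 0.708), so that the call was lost under both. The part of the choroid plexus in the Kdr result was not tested.

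Ocln (chromosome 13, 100496507 to 100552718, minus strand) was at 13.8, 13.8, 11.4 and 13.3 CPM in Sham + VH and at 9.28, 9.81, 8.63 and 9.39 CPM in TBI + VH. The groups did not overlap, with a log2 fold change of -0.50 ± 0.12 (FDR 0.00745). Ocln was at 9.35, 9.42, 9.61 and 11.2 CPM in Sham + CD, below every Sham + VH library. Occludin is made by epithelia as well as by endothelium, and Ocln was highest in the libraries with the highest choroid plexus sums. Its log2 difference was -0.12 ± 0.12 with the choroid plexus score (FDR 0.73) and -0.30 ± 0.16 without the choroid-rich libraries, and it was called under neither. The part of choroid plexus tissue in the Ocln difference was not tested.

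**Figure D1:**
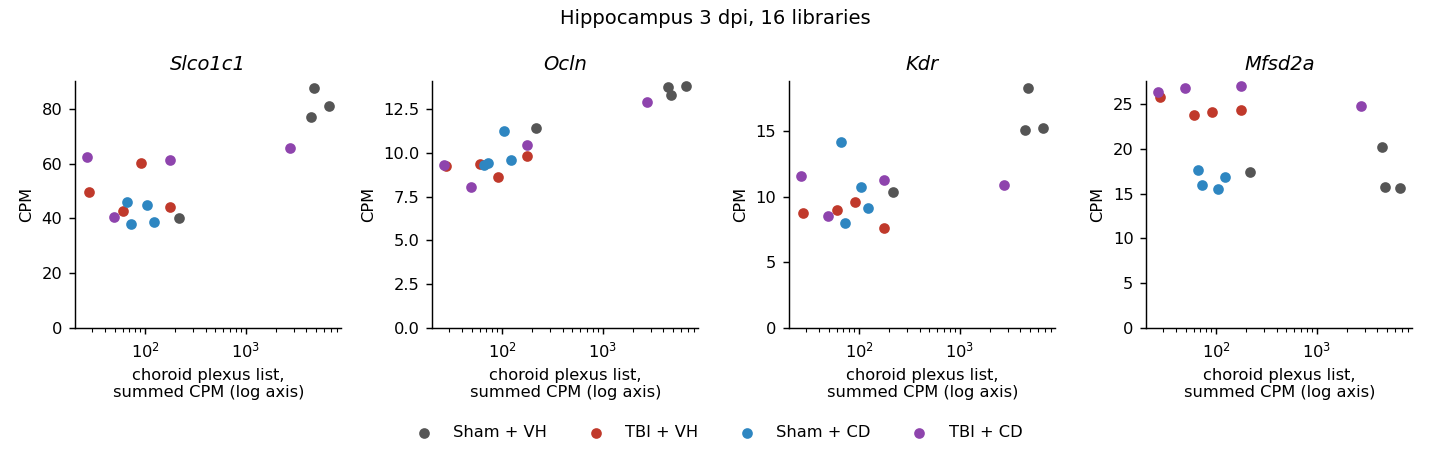
Levels of Slco1c1, Ocln, Kdr and Mfsd2a in CPM (vertical axes) against the summed CPM of 14 choroid plexus genes (horizontal log axes) in the 16 hippocampal libraries at 3 dpi, colored by group. The 3 Sham + VH libraries rich in choroid plexus transcripts carry the highest Slco1c1 levels, while Mfsd2a separates injured from sham libraries at low choroid plexus sums too.

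The remaining tight junction and transport genes did not pass both thresholds in TBI + VH. Tjp1, which neurons and glia also express, was at 89.1, 99.4, 108 and 94.3 CPM in Sham + VH and at 119, 108, 132 and 124 CPM in TBI + VH, with a log2 difference of 0.31 ± 0.08 (FDR 0.0145) just under the size threshold. Cldn5, the most specific tight junction gene of brain endothelium, was at 19.5, 20.6, 14.4 and 21.4 CPM in Sham + VH and at 20.1, 15.3, 22.2 and 14.8 CPM in TBI + VH. The Cldn5 groups overlapped, and the difference was -0.07 ± 0.16 on the log2 scale (FDR 0.851). Slc2a1 was at 63.2, 64.6, 62.9 and 69.4 CPM in Sham + VH and at 66.4, 67.0, 67.5 and 56.6 CPM in TBI + VH (-0.01 ± 0.07, FDR 0.933). Abcb1a, which encodes the efflux pump P-glycoprotein, was at 18.2, 19.0, 13.7 and 22.4 CPM and at 18.9, 15.5, 21.6 and 15.5 CPM in the same groups (-0.04 ± 0.17, FDR 0.924). None of these last 3 genes showed a difference beyond the spread of the libraries. Slco1c1, which is also known in choroid plexus and astrocytes, was at 81.2, 77.1, 40.3 and 87.8 CPM in Sham + VH and at 49.6, 44.3, 60.3 and 42.8 CPM in TBI + VH (-0.54 ± 0.19, FDR 0.0744). With the choroid plexus score the Slco1c1 difference was 0.02 ± 0.25.

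Among the receptors, transcription factors and surface proteins, Cd34 passed the FDR alone (0.28 ± 0.08, FDR 0.0231). The other receptors Flt1 (-0.37), Tie1 (-0.30), Eng (-0.16), Tek (-0.14), Ptprb (-0.14) and Robo4 (-0.09) were each at a negative log2 difference without a call. Erg (-0.17), Sox17 (-0.06) and Sox18 (-0.20), which hold endothelial identity, were likewise not called. The secreted and surface genes were mixed in sign, with Vwf at 0.51, Ly6a at 0.34, Ly6c1 at 0.17, Itm2a at 0.00, Egfl7 at -0.20 and Emcn at -0.37, and none was called. The junction genes Pecam1 (-0.10), Cdh5 (-0.15), Esam (-0.18) and Icam2 (-0.30), the transporters Slco1a4 (-0.29), Abcg2 (0.19) and Slc7a5 (0.23), and Plvap (0.32), Apold1 (-0.36) and Angpt2 (-0.43) completed the set. Without the choroid-rich libraries all differences of this comparison share the level of 1 Sham + VH library, replicate 3. That library held the lowest Plvap, Cldn5, Vwf and Flt1 levels of its group, though not the lowest Mfsd2a or Tjp1 level. In that fit Plvap was at 0.80 ± 0.18, and 29 of the 34 differences were positive.

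**Figure D2:**
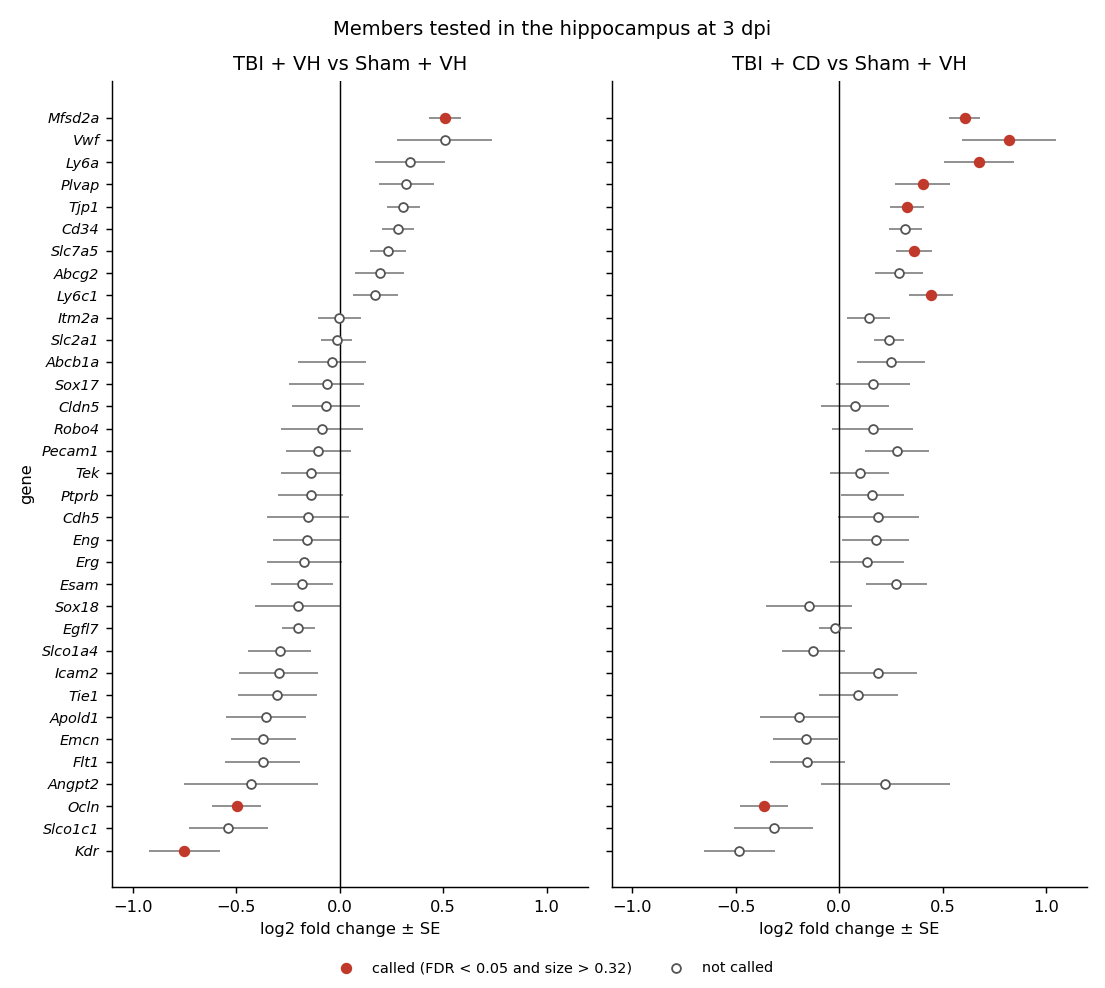
Log2 fold change against Sham + VH (horizontal axes, bars are standard errors) of the 34 genes tested in the hippocampus at 3 dpi, for TBI + VH (left) and TBI + CD (right), with called genes filled. Mfsd2a and Ocln are filled in both panels, Kdr only on the left, and 6 further genes only on the right.

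Injured candesartan mice were compared with the same Sham + VH controls, so both comparisons share their control libraries. In TBI + CD, 8 of the 34 genes were called, 7 up and 1 down, where 12.1% of all genes were called (10.3% up and 1.86% down). The genes that rose were Vwf, Ly6a, Mfsd2a, Ly6c1, Plvap, Slc7a5 and Tjp1, and Ocln fell. Positive differences numbered 25 of 34, with a median of 0.17 beside -0.02 over all genes.

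Vwf (chromosome 6, 125546774 to 125686679), which encodes the von Willebrand factor of endothelial storage granules, was at 14.6, 16.8, 9.51 and 19.7 CPM in Sham + VH. It was at 32, 17.0, 31.3 and 27.0 CPM in TBI + CD and at 24.4, 17.6, 28.5 and 15.6 CPM in TBI + VH. Replicate 2 of TBI + CD lay within the sham range and the other 3 lay above it, with a log2 difference of 0.82 ± 0.23 (FDR 0.0193). Ly6a (chromosome 15, 74994877 to 74998031) was at 14.8, 12.1, 10.4 and 12.5 CPM in Sham + VH and at 20.7, 15.3, 24.0 and 19.7 CPM in TBI + CD (0.68 ± 0.17, FDR 0.00966). Ly6c1 (chromosome 15, 75044018 to 75048830) was at 22.3, 21.5, 18 and 21.7 CPM and at 31.1, 26.3, 28.1 and 28.3 CPM (0.44 ± 0.11, FDR 0.00772). Neither gene overlapped between these groups. Both encode small surface proteins of a family of close copies, also found on leukocytes, and reads that fit several copies make their levels uncertain.

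Plvap (chromosome 8, 71497765 to 71511752), the protein of fenestral diaphragms, was at 6.42, 7.98, 4.92 and 8.08 CPM in Sham + VH and at 8.29, 8.99, 10.1 and 8.85 CPM in TBI + CD (0.40 ± 0.13, FDR 0.0466). TBI + VH libraries of Plvap were at 7.57, 8.71, 9.46 and 8.54 CPM and overlapped the sham range. Slc7a5 (chromosome 8, 121881150 to 121907694) was at 42.0, 51.0, 46.5 and 47.1 CPM in Sham + VH and at 54.9, 56.1, 68.6 and 59.9 CPM in TBI + CD (0.36 ± 0.09, FDR 0.00718). All 4 TBI + CD libraries were above the sham libraries for both genes. Tjp1 (chromosome 7, 65296165 to 65527781) was at 110, 110, 131 and 140 CPM in TBI + CD (0.33 ± 0.08, FDR 0.00846), and Ocln was at 12.9, 8.04, 9.31 and 10.5 CPM (-0.36 ± 0.12, FDR 0.0416). Kdr was at 10.9, 8.52, 11.6 and 11.3 CPM (-0.48 ± 0.17, FDR 0.0606), which is not a call here, though Kdr was called as lower with DESeq2, with the replicate block, without the filter and without replicate 3 of Sham + VH. Kdr was at 0.01 ± 0.26 without the choroid-rich libraries. Replicate 1 of TBI + CD, the only choroid-rich library of its group, held the highest Ocln level of the group.

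**Figure D3:**
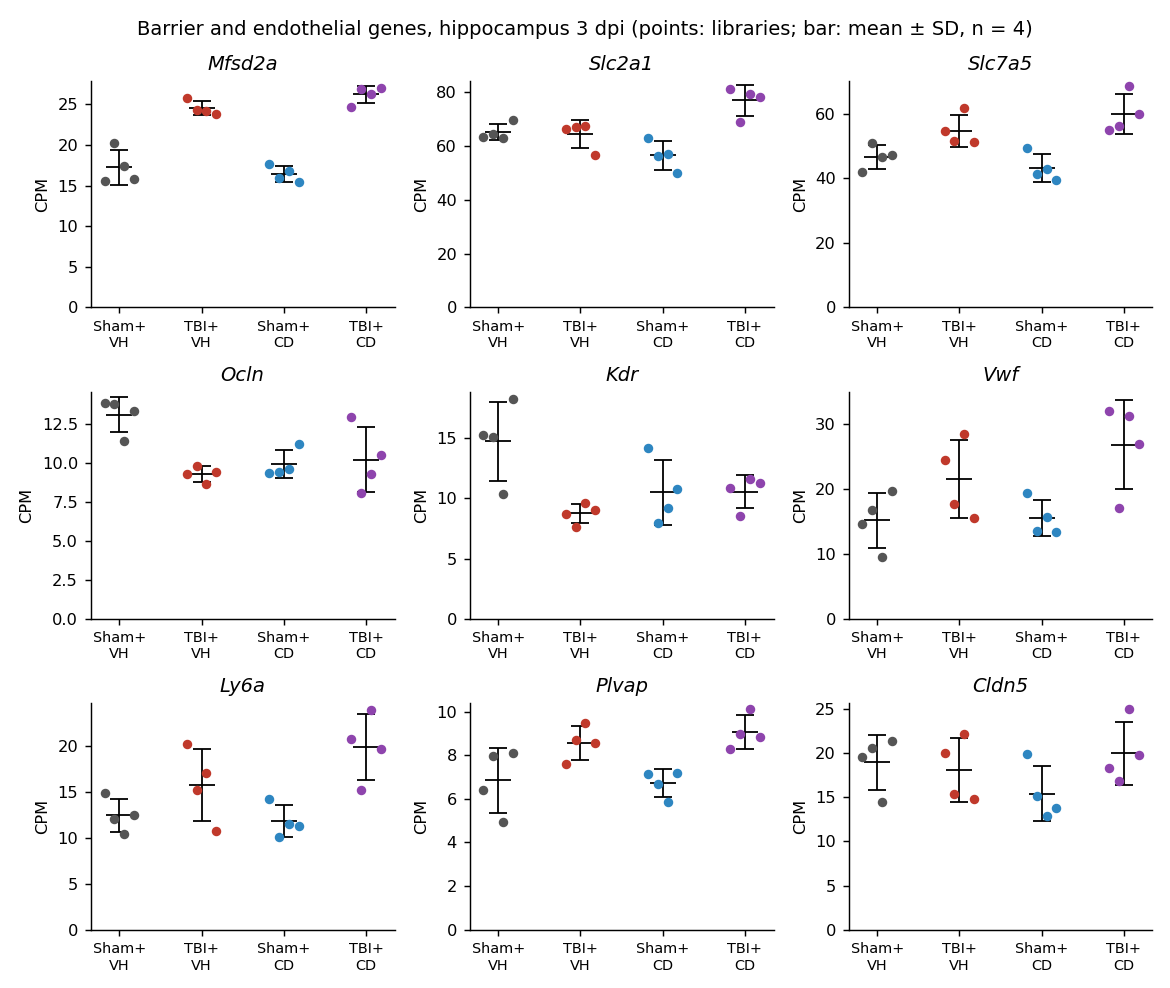
CPM (vertical axes, from 0) of 9 genes in the 4 groups of hippocampal libraries at 3 dpi. Points are libraries, and bars are the mean and SD of 4. Mfsd2a lies higher in both injured groups, Ocln and Kdr lie highest in Sham + VH, and Cldn5 overlaps in all 4 groups.

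These calls depended on the choroid-rich libraries and on single libraries. With the choroid plexus score 3 genes were called (Mfsd2a, Ly6c1 and Vwf), where 7.32% of all genes were called, beside 12.1% in the main fit. Without the 4 choroid-rich libraries 1 library is left in Sham + VH, and all 8 genes kept their direction. Across 17 alternatives, which include leaving out each library in turn, Mfsd2a was called in 17, Ly6c1 in 16, Ly6a and Vwf in 14, Slc7a5 in 12, Tjp1 in 9, Plvap in 8 and Ocln in 7. No alternative turned the direction of any of these 8 genes. Over them Ly6c1 was at 0.38 to 0.62 and Ly6a at 0.58 to 0.91, while Ocln ranged from -0.50 to -0.082.

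Both candesartan groups were low in choroid plexus transcripts except for replicate 1 of TBI + CD, and TBI + CD was also set against Sham + CD. Here 10 of 34 genes were called, all up, where 20.1% of all genes were called (14.4% up and 5.67% down). They were Vwf (0.79 ± 0.23, FDR 0.0131), Ly6a (0.76 ± 0.17, FDR 0.00248), Mfsd2a, Eng (0.48 ± 0.17, FDR 0.0322), Slc7a5 (0.47 ± 0.09, FDR 0.000543), Ly6c1 (0.45 ± 0.11, FDR 0.00373), Slc2a1 (0.44 ± 0.07, FDR 0.000227), Pecam1 (0.44 ± 0.16, FDR 0.0413), Plvap (0.43 ± 0.13, FDR 0.02) and Esam (0.43 ± 0.15, FDR 0.0348). Positive differences numbered 33 of 34, with a median of 0.33 beside 0.00 over all genes. Slc2a1 was at 62.8, 56.4, 57.1 and 49.7 CPM in Sham + CD and at 81.2, 68.7, 79.4 and 78.0 CPM in TBI + CD, without overlap. These levels of Slc2a1 showed a clear gap between the groups. Eng, the co-receptor endoglin, was at 15.1, 9.98, 9.12 and 12.1 CPM and at 17.2, 15.5, 16 and 16.1 CPM in the same groups, also without overlap. Pecam1, an adhesion molecule of endothelial contacts, was at 15.3, 12.8, 11.8 and 12.9 CPM in Sham + CD and at 17.3, 14.2, 23.4 and 16.7 CPM in TBI + CD. Esam was at 9.89, 7.94, 7.09 and 8.30 CPM and at 12.2, 8.99, 12.8 and 10.7 CPM. For both genes replicate 2 of TBI + CD lay within the sham range. Kdr (0.01) and Ocln (0.04), which were low in both candesartan groups, did not differ in this comparison beyond their errors of 0.17 and 0.12. Over 17 alternatives Pecam1 was called in 8, Esam in 10, Eng in 12, Plvap in 15 and the other 6 genes in all 17. Pecam1 and Esam were lost with the choroid plexus score, and Pecam1 also with the replicate block. The count was 8 with the choroid plexus score and 8 without the choroid-rich libraries. It was 6 without replicate 3 of Sham + CD.

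The promoters of 4 of the genes called in the hippocampus at 3 dpi are shown because these genes went in different directions in the same tissue. Each line gives 250 bases before and 50 bases after the most upstream start site listed by RefSeq (GRCm38.p6), read 5′ to 3′ on the gene's strand, and capitals mark the letters GGAAG or CTTCC, the core that ETS factors such as Erg read on either strand. The windows are chr4:122961139-122961438 (Mfsd2a), chr5:75978406-75978705 (Kdr), chr13:100552669-100552968 (Ocln) and chr15:75048788-75049087 (Ly6c1), all on the minus strand.
Mfsd2a: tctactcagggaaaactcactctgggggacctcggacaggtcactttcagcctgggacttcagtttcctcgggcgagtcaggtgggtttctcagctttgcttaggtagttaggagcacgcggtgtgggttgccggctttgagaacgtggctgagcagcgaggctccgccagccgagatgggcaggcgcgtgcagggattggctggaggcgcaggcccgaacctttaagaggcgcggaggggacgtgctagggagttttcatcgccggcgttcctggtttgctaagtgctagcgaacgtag
Kdr: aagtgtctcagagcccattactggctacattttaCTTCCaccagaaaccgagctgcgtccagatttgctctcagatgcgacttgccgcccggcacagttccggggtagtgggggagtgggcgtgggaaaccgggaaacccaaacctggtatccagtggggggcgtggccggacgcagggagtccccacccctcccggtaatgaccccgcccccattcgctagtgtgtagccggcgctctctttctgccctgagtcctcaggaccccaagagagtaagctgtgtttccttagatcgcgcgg
Ocln: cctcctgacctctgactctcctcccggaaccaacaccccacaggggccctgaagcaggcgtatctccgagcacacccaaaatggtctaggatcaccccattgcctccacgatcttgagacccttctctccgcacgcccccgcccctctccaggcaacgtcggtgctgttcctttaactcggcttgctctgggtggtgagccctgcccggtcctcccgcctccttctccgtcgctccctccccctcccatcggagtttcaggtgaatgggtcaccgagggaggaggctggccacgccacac
Ly6c1: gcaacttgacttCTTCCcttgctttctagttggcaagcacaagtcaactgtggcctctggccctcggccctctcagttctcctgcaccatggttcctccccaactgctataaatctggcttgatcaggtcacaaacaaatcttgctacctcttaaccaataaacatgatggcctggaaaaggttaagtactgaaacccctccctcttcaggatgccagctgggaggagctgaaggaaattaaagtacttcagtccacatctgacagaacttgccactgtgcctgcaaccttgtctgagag

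The G and C share of these windows was 60.3% in Mfsd2a, 60.7% in Kdr, 64.0% in Ocln and 49.0% in Ly6c1, and its median over the 32851 windows of the table was 52.7%. Kdr and Ly6c1 held 1 marked match each, while Mfsd2a and Ocln held none, though both hold the shorter core GGAA or its reverse TTCC. Of the 35 genes 23 had a window in the table, and 16 of these (69.6%) held GGAAG on either strand, beside 71.4% of all windows. The letters ACAAT, read by SOX factors, were in 7 of the 23 (30.4%) and in 31.0% of all windows, and AGATAA, read by GATA factors, was in 2 (8.7%) and in 11.2%. The endothelial windows thus held these letters about as often as windows at large, and a match of letters is no evidence of binding.

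Candesartan without injury was compared in Sham + CD and Sham + VH. In the hippocampus at 3 dpi edgeR called 0 of the 34 genes, where 1.5% of all genes were called, with 5 at an unadjusted p under 0.05, where 15% of all genes were, and 2 called by DESeq2 (Slco1c1 and Ocln). Slco1c1 was at 46.0, 38.0, 38.8 and 44.9 CPM in Sham + CD (-0.77 ± 0.19, FDR 0.0527), close to the 40.3 CPM of the Sham + VH library that was low in choroid plexus transcripts. Only 6 of 34 differences were positive, with a median of -0.15. Leaving out replicate 3 of Sham + VH, the control library low in choroid plexus transcripts, gave 4 calls. With the choroid plexus score 14 of the 34 were positive and Slco1c1 was at -0.22 ± 0.24, and without the choroid-rich libraries 26 were positive and Slco1c1 was at 0.06 ± 0.22. In the latter fit all differences share the level of 1 Sham + VH library, and edgeR called 0 of the 34 in both of these fits.

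Candesartan after injury was compared directly in TBI + CD and TBI + VH. In the hippocampus edgeR called 0 genes of the set and 0% of all genes at both times. At 3 dpi 6 of the 34 were at an unadjusted p under 0.05, where 4.37% of all genes were. At 29 dpi 2 were, where 5.31% of all genes were, and DESeq2 called 0 at both times. All 34 differences were positive at 3 dpi, with a median of 0.23, and all 34 at 29 dpi, with a median of 0.27, while 50.1% and 49.5% of all genes were positive, with medians of 0.00 and 0.00. Leaving out each library in turn left 32 to 34 positive at 3 dpi and 32 to 35 at 29 dpi. The upper value includes Esm1, which passed the filter in some of these fits. The 34 differences come from the same 8 libraries at each time and largely from the same cells, so they are not independent of each other.

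The largest difference at 3 dpi was that of Angpt2, at 1.29, 1.11, 0.975 and 0.81 CPM in TBI + VH and at 2.1, 1.1, 2.15 and 1.2 CPM in TBI + CD (0.65 ± 0.32, FDR 0.999). Icam2 (0.48 ± 0.19), an adhesion molecule of endothelial surfaces, and Esam (0.46 ± 0.15), a junctional adhesion molecule, followed. The levels of Slc2a1 (0.26 ± 0.07) and of the transcription factor Erg (0.30 ± 0.18) did not overlap between the groups, but the FDR was 0.999 for each. At 29 dpi the largest were Sox17 (0.58 ± 0.24, FDR 0.882), Cdh5, which encodes VE-cadherin (0.57, FDR 0.882), and Sox18 (0.57 ± 0.25, FDR 0.882). Sox17 was at 3.23, 1.66, 2.36 and 1.73 CPM in TBI + VH and at 3.34, 3.69, 3.35 and 3.19 CPM in TBI + CD, with replicate 1 of TBI + VH inside the range of the candesartan group.

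Lists of other cell types differed in direction in this comparison, where 0% of all genes were called. Earlier results of these data were known when these lists were chosen. All 13 pericyte and smooth muscle genes were positive at both times (medians 0.24 and 0.12), as were all 14 choroid plexus genes (medians 2.51 and 1.18) and 4 of 4 globin and other red blood cell genes (medians 1.18 and 1.59). Among microglial genes 7 of 8 were positive at 3 dpi and 1 of 8 at 29 dpi (medians 0.10 and -0.087), among astrocyte genes 5 of 7 and 3 of 7 (medians 0.022 and -0.030). All 5 oligodendrocyte genes were negative at 3 dpi and positive at 29 dpi (medians -0.37 and 0.19), ependymal genes were positive for 2 of 7 and 6 of 7, and those of infiltrating leukocytes for 3 of 6 and 2 of 5. Of 25 other endothelial genes outside the set, 22 were positive at 3 dpi and 21 at 29 dpi (medians 0.30 and 0.30). Pericyte genes summed to 181 to 216 CPM in TBI + VH and 206 to 272 CPM in TBI + CD at 3 dpi, and red blood cell genes to 22.8 to 45.7 CPM and 24.2 to 172 CPM. Choroid plexus genes at 3 dpi summed to 27.8 to 177 CPM in TBI + VH and to 2744, 48.9, 26.7 and 177 CPM in TBI + CD, with replicate 1 alone far above the TBI + VH libraries. Without the choroid-rich libraries 34 of the 34 endothelial differences at 3 dpi were still positive, with a median of 0.22. The 29 dpi comparison was not fitted without its choroid-rich libraries, which are given below. The share of vessels in the dissected tissue was not measured, and its part in the result was not tested.

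**Figure D4:**
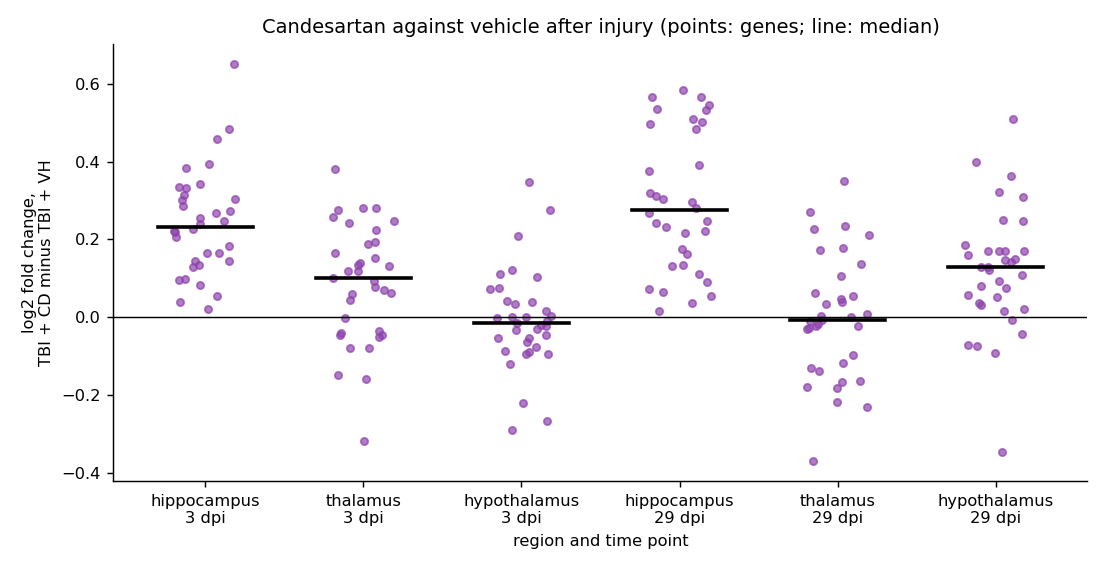
Log2 fold change of TBI + CD against TBI + VH (vertical axis) of each endothelial gene tested in the 6 sets of region and time (horizontal axis), with a line at the median. All 34 points lie above 0 in the hippocampus at both times, and the medians lie between -0.02 and 0.13 in the other 4 sets.

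Whether injury effects differed with candesartan was tested as an interaction in the hippocampus, with 0 genes of the set and 0% of all genes called at both times. At 3 dpi 12 of the 34 and 13.1% of all genes were at an unadjusted p under 0.05, and at 29 dpi 3 of the 34 and 5.29% of all genes were. Slc2a1 had the lowest FDR of the set at 3 dpi (0.46 ± 0.10, FDR 0.0647), and DESeq2 called this gene alone. Injury went with little difference in Slc2a1 in vehicle mice and with a higher level in candesartan mice. Differences were positive for 31 of 34 genes at 3 dpi (median 0.41) and for 32 of 34 at 29 dpi (median 0.32), beside 50.7% and 51.2% of all genes. Slco1c1 at 0.99 ± 0.27 (FDR 0.112) and Angpt2 at 1.16 ± 0.46 (FDR 0.276) were at the upper end at 3 dpi. Sham + VH, the choroid-rich group, enters this contrast, and without its replicate 3 edgeR called 6 genes at 3 dpi. With the choroid plexus score Slc2a1 was at 0.37 ± 0.14 (FDR 0.80) and Slco1c1 at 0.33 ± 0.31. Without the choroid-rich libraries Slc2a1 was at 0.38 ± 0.15 (FDR 1.0), Slco1c1 at 0.10 ± 0.26 and Angpt2 at -0.16 ± 0.56, and 21 of 34 differences were positive.

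The signals that act on these cells were examined in lists from the same pathways, in TBI + VH against Sham + VH in the hippocampus at 3 dpi. Pathway and marker lists were chosen with earlier results of these data known, so their counts only describe these lists. As stated above, 10.7% of all genes were called in this comparison. Of 20 VEGF, angiopoietin, apelin and Notch genes, 2 rose and 1 fell, a share near that of all genes. Vegfa, which encodes the ligand of Kdr, was lower at a mean of 42.7 CPM against 57.9 CPM (-0.44 ± 0.10, FDR 0.00471), while Notch1 (0.51 ± 0.11) and the Tie2 agonist Angpt1 (0.63 ± 0.19) rose. The same 3 genes were called in TBI + CD, at -0.34, 0.46 and 0.62. Of 15 Wnt genes of the barrier, 3 rose in TBI + VH, among them Tspan12 (0.44 ± 0.10) and Tnfrsf19 (0.36 ± 0.07), and 2 fell, including Adgra2 (-0.36 ± 0.09), a co-receptor for Wnt7. In TBI + CD 4 of these 15 rose and 0 fell, where 12.1% of all genes were called, and the 4 became 2 with the choroid plexus score and 1 without the choroid-rich libraries. The 3 calls of the VEGF list in TBI + CD became 0 and 1 in these fits. None of these calls in TBI + VH was kept in fits that took the choroid plexus transcripts into account, where 0 of the 20 and 0 of the 15 were called with the choroid plexus score and without the choroid-rich libraries, beside 3.6% and 3.09% of all genes. With the score the differences were -0.27 ± 0.13 for Vegfa, 0.53 ± 0.17 for Notch1, 0.44 ± 0.28 for Angpt1 and -0.10 ± 0.10 for Adgra2.

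In TBI + VH, where 10.7% of all genes were called, 3 of 5 genes tested from a list on leukocyte adhesion and inflamed endothelium rose. They were Icam1 (1.72 ± 0.28), a ligand of leukocyte integrins, Ch25h (2.52 ± 0.46), an enzyme that makes an oxysterol, and Lrg1 (1.44 ± 0.34), a secreted glycoprotein. The adhesion gene Vcam1 (0.36 ± 0.15, FDR 0.14) and the chemokine receptor Ackr1 (-0.13 ± 0.08, FDR 0.351) were not called. The same 3 rose in TBI + CD, at 1.99, 2.50 and 1.74, where 12.1% of all genes were called. In the TGF-beta and endoglin list 4 of 12 rose in TBI + VH, led by Id3 (1.06 ± 0.08, FDR 2.85e-07), Tgfb1 (1.39 ± 0.23) and Tgfbr2 (0.74 ± 0.16). Of 25 other endothelial genes 2 rose, the monocarboxylate carrier Slc16a1 (0.59 ± 0.12) and Ctla2a (1.0 ± 0.28), and 4 fell, with Palmd (-0.36 ± 0.08) at the lowest p of these. In TBI + VH, Id3 and Icam1 were called with the choroid plexus score (1.03 ± 0.12 and 2.27 ± 0.38) and without the choroid-rich libraries (1.08 ± 0.15 and 2.72 ± 0.48). Lrg1 was called only with the score and Ch25h only without those libraries, while Tgfb1 and Tgfbr2, at 1.26 ± 0.34 and 0.90 ± 0.25 with the score, were called in neither. With the score 0 of the 25 other endothelial genes were called, beside 3.6% of all genes. Slc16a1 was then at 0.55 ± 0.17 and Palmd at -0.17 ± 0.10. Pericyte and smooth muscle genes had 0 of 13 called by edgeR in TBI + VH (3 had an unadjusted p under 0.05), while 1 was called in TBI + CD (Tagln, 2.49 ± 0.51), which was lost with the score and without the choroid-rich libraries.

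Markers of glia and leukocytes differed between the same groups. In TBI + VH 10.7% of all genes were called (8.99% up and 1.72% down). Their lists were chosen with earlier results of these data known. All 8 microglial genes rose in TBI + VH, with summed levels of 297 to 323 CPM in Sham + VH and 580 to 857 CPM in TBI + VH. All 7 astrocyte genes rose (1335 to 1700 CPM and 4403 to 6775 CPM), and 4 of 6 leukocyte genes rose (7.09 to 11.2 CPM and 31.9 to 134 CPM). All 14 choroid plexus genes fell. Pericyte sums were 172 to 225 CPM and 181 to 216 CPM. Several of the 35 genes, such as Tjp1, Slc7a5, Slco1c1, Ly6a and Ly6c1, are expressed by some of these cells as well, and the part of those cells in their levels was not tested. The summed level of the 35 genes was 613 to 791 CPM in Sham + VH and 598 to 724 CPM in Sham + CD, and it was 644 to 804 CPM in TBI + VH and 702 to 866 CPM in TBI + CD.

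Away from the hippocampus at 3 dpi the same comparisons called none of the 35 genes by edgeR or DESeq2. In the thalamus at 3 dpi 0.298% of all genes were called in TBI + VH and 0.418% in TBI + CD against Sham + VH, and 0% in the other 2 comparisons. In the hypothalamus at 3 dpi all 4 shares were 0%. Between 0 and 2 of the 35 genes were at an unadjusted p under 0.05 in these 8 comparisons. In the thalamus Mfsd2a was at 23.8, 17.1, 22.5 and 16.9 CPM in Sham + VH and at 21.9, 23.1, 16.3 and 19.1 CPM in TBI + VH, so that its groups overlapped. Of the 35 differences of TBI + VH, 14 were positive in the thalamus (median -0.03) and 11 in the hypothalamus (median -0.05).

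At 29 dpi the hippocampus had 0 of 34 genes called by edgeR or DESeq2 in each comparison, where 0.529% of all genes were called in TBI + VH and 0.119% in TBI + CD against Sham + VH. The share was 0.356% in TBI + CD against Sham + CD and 0% in Sham + CD against Sham + VH. Choroid-rich libraries here were replicates 1 and 4 of Sham + VH (7942 and 4538 CPM), 2 of TBI + VH (2448 CPM), 3 of Sham + CD (4270 CPM), and 1 and 2 of TBI + CD (3875 and 2535 CPM). These comparisons were not fitted without them. In TBI + VH 17 of 34 differences were positive (median 0.01), with 1 at an unadjusted p under 0.05, Sox18 (-0.74 ± 0.26, FDR 0.391). Mfsd2a was at 15.0, 19.0, 12 and 13.2 CPM in Sham + VH and at 14.6, 15.3, 21.6 and 18.1 CPM in TBI + VH. Its groups overlapped at 29 dpi. In TBI + CD against Sham + CD 32 of 34 differences were positive (median 0.32), where 49.6% of all genes were. An unadjusted p under 0.05 was reached by 6 of them, where 9.7% of all genes reached it. Slc2a1 (0.42 ± 0.14, FDR 0.261) did not overlap between these groups. In the thalamus at 29 dpi all 4 shares of called genes were 0%, and in the hypothalamus 0.00583% were called in TBI + VH against Sham + VH and 0% in the other 3 comparisons. Neither tool called any of the 35 genes in these 8 comparisons, and 0 to 2 of the genes were at an unadjusted p under 0.05 except in hypothalamic Sham + CD.

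Hypothalamic Sham + CD mice at 29 dpi had lower levels of most of the genes than Sham + VH mice, without a call. Of the 35 differences 4 were positive, with a median of -0.30 beside 0.00 over all genes, and 9 were at an unadjusted p under 0.05, where 13.2% of all genes were. Vwf was at 8.38, 6.85, 7.07 and 7.66 CPM in Sham + VH and at 6.72, 4.25, 5.87 and 3.78 CPM in Sham + CD (-0.56 ± 0.17, FDR 0.356), without overlap. Sox17, at 3.36, 3.36, 3.65 and 2.90 CPM and at 2.90, 2.34, 1.96 and 2.02 CPM (-0.54 ± 0.20, FDR 0.356), also fell short of the threshold. Slc2a1 was at 76.7, 88.6, 75.3 and 82.9 CPM and at 79.4, 57.8, 56.2 and 56.1 CPM (-0.38 ± 0.15, FDR 0.356), with replicate 1 of Sham + CD among the vehicle libraries. The same libraries differed in ependymal genes, which summed to 79.8 to 122 CPM in Sham + VH and to 83.9, 18.1, 22.3 and 24.9 CPM in Sham + CD. The dissected borders of the tissue and their part in this pattern were not tested.

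The effect of injury in vehicle mice was compared between regions and times. Between hippocampus and thalamus at 3 dpi 0 of 35 were called (3.88% of all genes), with 2 at an unadjusted p under 0.05. Between hippocampus and hypothalamus 1 was called (5.82% of all genes), Ocln, whose effect was lower in the hippocampus by 0.95 ± 0.28 on the log2 scale (difference -0.95, FDR 0.0281). Hypothalamic Ocln was at 4.11, 4.12, 7.64 and 9.61 CPM in Sham + VH and at 7.75, 10.1, 9.79 and 6.94 CPM in TBI + VH. This call was lost without the choroid-rich libraries and in 7 of the fits that leave out 1 library. For Mfsd2a the difference of effects was 0.52 ± 0.18 against the hypothalamus (FDR 0.0959) and for Kdr it was -0.72 ± 0.30 (FDR 0.198). Between 29 and 3 dpi in the hippocampus 0 of 34 were called (3.16% of all genes), with 1 at an unadjusted p under 0.05, Plvap (-0.42 ± 0.20, FDR 0.366). DESeq2 called 0 in the first and last of these and Ocln in the second.

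The regions were then compared with each other in sham vehicle mice. In Sham + VH at 3 dpi 8 of 35 were called between hippocampus and thalamus (5 higher and 3 lower in the hippocampus, 40.9% of all genes), 10 between hippocampus and hypothalamus (7 and 3, 46.7%) and 5 between thalamus and hypothalamus (4 and 1, 28.6%). At 29 dpi the counts were 6 (4 and 2, 39.3%), 7 (4 and 3, 45%) and 7 (4 and 3, 32.9%). All 6 counts lie below the share of all genes called. CPM in these comparisons come from a scaling over all 48 libraries of a time point. Without the choroid-rich libraries the Sham + VH group at 3 dpi held 1 hippocampal and 2 thalamic libraries, and at 29 dpi 2 and 2, beside 4 hypothalamic ones. These fits rest on fewer libraries, so that a lost call alone does not show a smaller difference.

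Cd34, a sialomucin of endothelial surfaces that progenitor cells and some other cells also carry, was the clearest regional gene. It was at 43.6, 38.5, 42.2 and 45.2 CPM in the hippocampus, 14.7, 16.3, 13.6 and 12.8 CPM in the thalamus and 13.6, 12.4, 12.7 and 13.3 CPM in the hypothalamus at 3 dpi. The log2 differences of the hippocampus were 1.56 ± 0.10 (FDR 1.41e-17) and 1.70 ± 0.10 (FDR 6.73e-19), and at 29 dpi they were 1.79 ± 0.18 and 1.94 ± 0.18. Thalamus and hypothalamus were not called apart for Cd34. Per kb, Cd34 ranked 11 of 35 in the hippocampus at 3 dpi.

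Angpt2 (chromosome 8, 18690263 to 18741562, minus strand) marked the thalamus, at 7.33, 6.04, 6.94 and 2.55 CPM there against 1.44, 1.51, 0.658 and 2.33 CPM in the hippocampus and 1.44, 0.712, 0.945 and 0.789 CPM in the hypothalamus at 3 dpi. Every thalamic library was above every other one, with log2 differences of -1.93 ± 0.35 for hippocampus minus thalamus (FDR 9.13e-06) and 2.55 ± 0.36 for thalamus minus hypothalamus (FDR 1.87e-07). At 29 dpi these were -2.14 ± 0.30 and 3.03 ± 0.31. Plvap marked the hypothalamus, which holds fenestrated vessels at the median eminence, at 12.9, 13.3, 10.2 and 8.35 CPM against 6.84, 8.52, 5.27 and 8.58 CPM in the hippocampus and 6.42, 5.23, 7.21 and 7.97 CPM in the thalamus. Replicate 4 of the hypothalamus lay below 2 hippocampal libraries, so that these groups overlapped at 3 dpi. Plvap was lower in the hippocampus by -0.62 ± 0.15 (FDR 0.000374) and in the thalamus by -0.74 ± 0.15 (FDR 6.84e-05), and at 29 dpi by -0.57 ± 0.15 and -0.85 ± 0.14. These calls of Cd34, Angpt2 and Plvap were kept without the choroid-rich libraries.

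**Figure D5:**
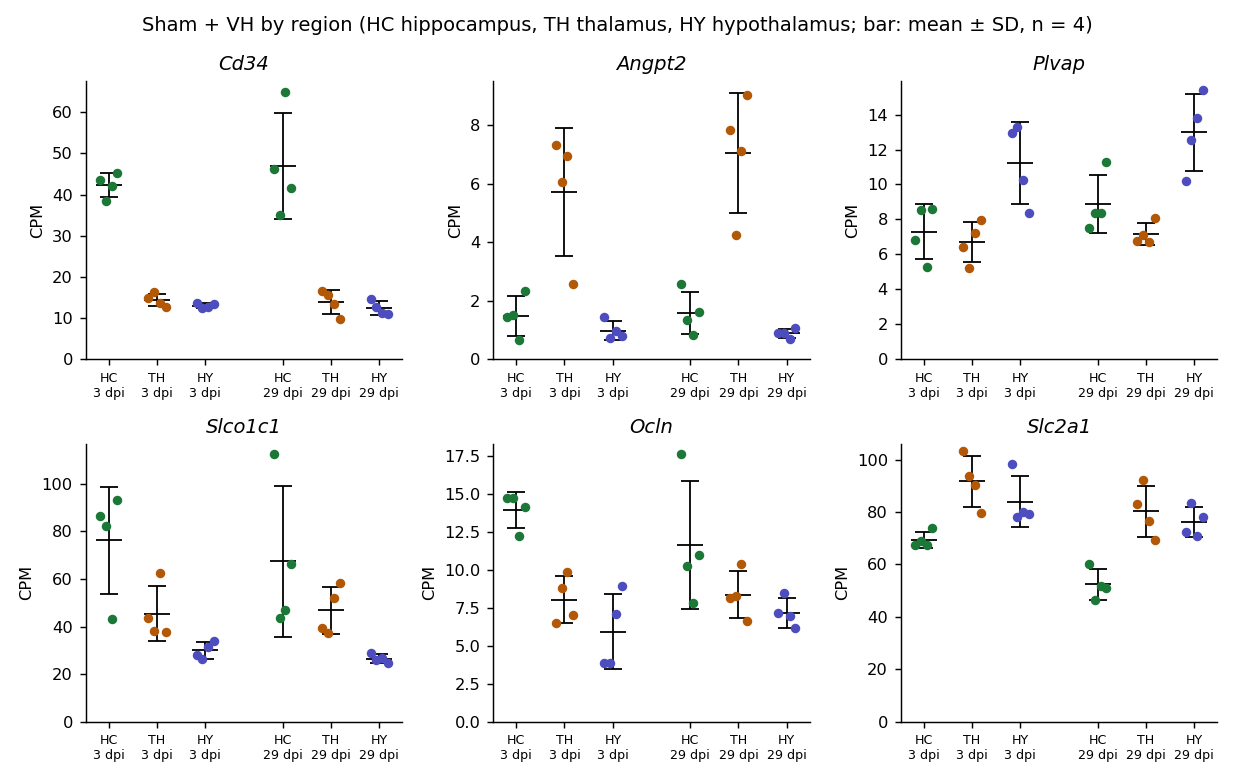
CPM (vertical axes, from 0) of Cd34, Angpt2, Plvap, Slco1c1, Ocln and Slc2a1 in the Sham + VH libraries of hippocampus (HC), thalamus (TH) and hypothalamus (HY) at 3 and 29 dpi. Points are libraries, and bars are the mean and SD of 4. Cd34 is highest in the hippocampus, Angpt2 in the thalamus and Plvap in the hypothalamus at both times.

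Transporters and junction genes also differed by region. Slco1c1 was at 86.5, 82.3, 43.2 and 93.2 CPM in the hippocampus, 43.8, 38.0, 62.4 and 37.5 CPM in the thalamus and 28.2, 26.2, 31.5 and 34.1 CPM in the hypothalamus at 3 dpi, with log2 differences of 0.75 ± 0.17, 1.35 ± 0.17 and 0.60 ± 0.17 for hippocampus minus thalamus, hippocampus minus hypothalamus and thalamus minus hypothalamus. The hippocampal library at 43.2 CPM is the one low in choroid plexus transcripts. Ocln was at 14.7, 14.7, 12.2 and 14.1 CPM in the hippocampus, 6.50, 8.78, 9.83 and 7.05 CPM in the thalamus and 3.87, 3.88, 7.09 and 8.91 CPM in the hypothalamus (0.80 ± 0.20 and 1.23 ± 0.20 for the hippocampus). Slc2a1 went the other way, at 67.3, 68.9, 67.3 and 73.7 CPM in the hippocampus and 103, 93.6, 90.4 and 79.5 CPM in the thalamus (-0.40 ± 0.11, FDR 0.00151). At 29 dpi Slc2a1 was lower in the hippocampus than in the thalamus (-0.60 ± 0.15) and the hypothalamus (-0.53 ± 0.15). Without the choroid-rich libraries the calls of Slco1c1 and Ocln between hippocampus and hypothalamus at 3 dpi were kept, at 0.53 ± 0.21 and 1.05 ± 0.30. The calls of Slco1c1, Ocln, Slc2a1, Egfl7, Sox17 and Kdr between hippocampus and thalamus were lost. There Ocln (0.65 ± 0.33), Slc2a1 (-0.34 ± 0.20), Egfl7 (0.33 ± 0.17) and Sox17 (-0.69 ± 0.31) kept their direction and most of their size or more, while Slco1c1 was at 0.21 ± 0.24 and Kdr at -0.0079 ± 0.38. With all libraries Sox17 was at 2.17, 2.93, 1.98 and 2.45 CPM in the hippocampus and at 3.93, 2.81, 2.49 and 3.67 CPM in the thalamus (-0.44 ± 0.18, FDR 0.0321), these groups overlapped, and Sox17 was called in 7 of 14 alternatives.

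Egfl7, which encodes a secreted protein of the vessel matrix, was at 23.9, 24.7, 24.2 and 23.3 CPM in the hippocampus, 17.1, 16.7, 16.6 and 13.6 CPM in the thalamus and 22.4, 20.5, 24.3 and 24.0 CPM in the hypothalamus at 29 dpi. The thalamus was lowest for Egfl7 (0.59 ± 0.09 for hippocampus minus thalamus and -0.51 ± 0.09 for thalamus minus hypothalamus). The efflux pump Abcg2 was higher in the hippocampus (18.7, 13, 14.6 and 13.5 CPM) than in the thalamus (9.72, 11.2, 11.4 and 11 CPM) at 29 dpi, by 0.49 ± 0.12. Slc7a5 was lower in the thalamus (39.8, 47.7, 35.3 and 35.5 CPM) than in the hypothalamus (49.5, 53.8, 53.3 and 51.5 CPM) at 29 dpi (-0.40 ± 0.10). For neither gene did the groups overlap.

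Ly6a (0.41 ± 0.13) and Apold1 (0.53 ± 0.19), an early response gene of endothelium, were called higher in the thalamus than in the hypothalamus at 29 dpi. Ly6a was at 10.2, 10.2, 10.8 and 8.64 CPM against 8.38, 6.61, 7.04 and 7.85 CPM, and Apold1 at 3.17, 2.95, 2.88 and 2.64 CPM against 2.39, 1.87, 2.12 and 1.56 CPM. Esm1, with few counts, was called lower in the hippocampus than in the hypothalamus, at 0.382, 0.311, 0.0878 and 0.544 CPM against 0.879, 0.783, 0.532 and 0.921 CPM at 3 dpi (-1.20 ± 0.47, FDR 0.0263), and these groups overlapped. This call of Esm1 held in 10 of 14 alternatives, over which its difference was -3.06 to -0.88, and that at 29 dpi held in 7 of 14. Calls at 3 dpi between hippocampus and hypothalamus that were lost without the choroid-rich libraries were those of Cldn5 (0.59 ± 0.18), Vwf (0.83 ± 0.26), Kdr (0.67 ± 0.21), Sox18 (0.59 ± 0.23) and Mfsd2a (-0.43 ± 0.13). In that fit they were at 0.21 ± 0.30, 0.17 ± 0.41, 0.17 ± 0.34, -0.029 ± 0.37 and -0.41 ± 0.20 in this order. Sox18 was at 3.44, 4.35, 2.24 and 3.77 CPM in the hippocampus and at 2.36, 2.74, 2.10 and 2.01 CPM in the hypothalamus, which overlapped. Slco1a4, another organic anion carrier, was higher in the thalamus (35.7, 39.2, 36.2 and 35.7 CPM) than in the hypothalamus (26.5, 24.7, 30.9 and 30.6 CPM) at 3 dpi, by 0.38 ± 0.14, and Apold1 was also higher there, by 0.41 ± 0.17. The call of Apold1 at 3 dpi held in 5 of 14 alternatives and was lost with DESeq2, with other scaling factors and without the filter, among others. That of Slco1a4 held in 10 of 14, over which its difference was 0.32 to 0.43, and that of Slco1c1 between these regions in 12 of 14. At 29 dpi the call of Slco1c1 between hippocampus and thalamus (0.54 ± 0.20) was lost without the choroid-rich libraries, at 0.24 ± 0.19, and that of Slc7a5 between thalamus and hypothalamus at -0.23. Between hippocampus and hypothalamus at 29 dpi those of Ocln (0.71 ± 0.27), Angpt2 (0.89 ± 0.34) and Esm1 (-1.5 ± 0.62) were lost, at 0.31 ± 0.34, 0.19 ± 0.39 and -1.42 ± 0.75.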

How the data were processed

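Poly(A) RNA of 96 tissue samples had been sequenced as paired-end, stranded libraries, from the 4 RNA samples of best quality per group. Per the study's methods, the authors aligned reads to the mouse genome mm10 with MapSplice and counted them per gene with HTSeq 0.9.1, and they used DESeq2 1.16.1 for their own tests. The annotation and the strand setting of the counting are not given in the sources used here. The deposited values are raw whole-number counts per gene, 1 table per time point, with no other normalization.

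The endothelial genes, their roles and the marker and pathway lists were chosen with earlier results of these data known. Counts were fitted with edgeR 4.0.16 (R 4.3.3): filterByExpr, TMM factors, quasi-likelihood F tests and Benjamini-Hochberg adjustment over all genes, in 1 fit of 16 libraries per region and time. Fits of 48 libraries (regions) and 32 libraries (times) treated regions as independent samples. CPM are counts scaled to a common library size with TMM factors. Genes with an FDR below 0.05 and a log2 fold change beyond 0.32 in either direction were called. Standard errors were the absolute log2 fold change divided by the square root of F. DESeq2 1.42.0, relative log expression factors, no filter, FDR alone, a replicate block, a choroid plexus score as covariate and leaving out each library were tried as alternatives. Fits without the libraries rich in choroid plexus transcripts (summed level of 1000 CPM or more), and all alternatives for the pathway lists, were added after seeing the data. The edgeR step was tested on simulated counts of the hippocampus at 3 dpi, among others. Of true log2 changes of 0.4 it found 47.7% in TBI + VH against Sham + VH and 15.5% in the interaction. At 0.8 it found 92.9% and 78.3%. A count of 0 calls thus does not show that differences of 0.4 are absent.

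Every gene of the set was named. Values per library were given for the genes called in the hippocampus at 3 dpi, for most of those called between regions and for Cldn5, Slc2a1, Mfsd2a, Ocln, Tjp1, Abcb1a and Plvap, and lists gave at most 3 genes by lowest p beside their counts, except the leukocyte adhesion list, of which all 5 tested genes are named. Per-kb levels used exon lengths of GENCODE vM21 (GRCm38), and promoters came from a RefSeq table. Exons of Slc2a1, Abcb1a, Eng, Sox17, Egfl7 and Cd34 overlap other genes, and Ly6a, Ly6c1, Abcb1a and the Slco genes have close copies, so that shared reads could affect their counts. No 2 libraries of a group agreed within sampling noise.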

Additional observations from a re-analysis of the deposited data

Results flagged for a closer look

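Among 88 groups of 4 libraries examined for the genes with values per library, 2 held a library far from the other 3 by Dixon's test, and chance alone gives about 5% of groups. Slc2a1 was at 56.6 CPM in replicate 4 of hippocampal TBI + VH at 3 dpi, below 66.4, 67.0 and 67.5 CPM in the others. Ocln was at 11.2 CPM in replicate 4 of hippocampal Sham + CD at 3 dpi, above 9.35, 9.42 and 9.61 CPM in the others. The effect of injury on Ocln in vehicle mice differed between hippocampus and hypothalamus at 3 dpi, with an interaction of -0.95 ± 0.28 on the log2 scale (FDR 0.0281, edgeR). The cause of these values was not tested.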

How the results depend on the processing

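For the counts of called genes and the tests that answer a comparison, 314 of 336 values from fits that left out 1 library and 283 of 297 values under other alternatives kept their direction and their call, or stayed within 1.5 times the main count, and many of these are counts of 0 that stayed at 0. The calls of single genes were less stable, with 83 of 528 values lost when 1 library was left out, and 55 of 453 lost and 2 reversed under other alternatives. In the hippocampus at 3 dpi the 3 calls of TBI + VH against Sham + VH became 5 by FDR alone, 1 with the choroid plexus score and 0 with that score and the replicate block. The 8 calls of TBI + CD against Sham + VH became 3 with the score and 3 with the score and the block. For Sham + CD the count of 0 became 1 without the filter and 2 with DESeq2, and for the interaction at 3 dpi it became 1 under each. Without the choroid-rich libraries the region counts at 3 dpi became 5 (hippocampus and thalamus) and 6 (hippocampus and hypothalamus), and the 1 call of the regional injury effect (hippocampus against hypothalamus) became 0. Thalamus against hypothalamus at 3 dpi gave 8 by FDR alone. In fits without the choroid-rich libraries Kdr reversed to -0.0079 between hippocampus and thalamus, and Sox18 to -0.029 between hippocampus and hypothalamus, at 3 dpi.

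Leaving out each library gave 3 to 6 calls in TBI + VH against Sham + VH (6 without replicate 3 of Sham + VH, 5 without replicate 4 of TBI + VH). It gave 4 to 8 in TBI + CD against Sham + VH (5 without replicate 1 of Sham + VH, 4 and 5 without replicates 3 and 4 of TBI + CD), 6 to 13 in TBI + CD against Sham + CD (6 without replicate 3 of Sham + CD), 0 to 4 in Sham + CD (4 without replicate 3 of Sham + VH) and 0 to 6 in the interaction (6 without replicate 3 of Sham + VH, 2 without replicate 2 of TBI + CD). Thalamus against hypothalamus at 3 dpi gave 4 to 9 (8 without thalamic replicate 1 or 4, 9 without hypothalamic replicate 4), and the regional injury effect gave 0 to 2. The causes were not tested.

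Samples of the same number deviated together, with a correlation over 0.1, in 4 to 15 of 24 pairs per region and time. In the thalamus at 3 dpi the median correlation was 0.13 for the same number and -0.026 for other numbers. The main fits did not take the numbers as pairs, so that a factor shared by number stays in their error, and a replicate block was an alternative. With the replicate block the counts of the 3 injury comparisons in the hippocampus at 3 dpi were 3, 10 and 9, and no count moved by over 1.5 times. Between hippocampus and thalamus at 29 dpi it went from 6 to 9, with Flt1, Eng and Pecam1 added as lower in the hippocampus, and between thalamus and hypothalamus from 7 to 8, with Emcn added. Depth limits the low genes: per library, Esm1 reached down to 0 counts, Icam2 to 6, Angpt2 to 7 and Erg to 12.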

Other observations

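Hippocampal, thalamic and hypothalamic libraries at 29 dpi differed by replicate number in vascular genes, whatever their group. The library numbered 4 had the lowest Cldn5 level in 12 of 12 groups and the lowest Flt1 level in 12 of 12, and the lowest level of Cdh5, Kdr and Tie1 in 10 of 12 each. In the hippocampus Cldn5 was at 23.6, 17.4, 11.3 and 6.45 CPM in Sham + VH and 25.0, 20.7, 14.1 and 6.26 CPM in Sham + CD for replicates 1 to 4. It was at 18.8, 16, 8.36 and 7.01 CPM in TBI + VH and at 19.8, 22.8, 15.4 and 14.1 CPM in TBI + CD. Plvap went another way, with its lowest level in the library numbered 1 in 9 of 12 groups. At 3 dpi the library numbered 4 had the lowest Cldn5 level in 2 of 12 groups. The labels do not say what the numbers stand for. The summed level of the 35 genes was lowest in the library numbered 4 in 10 of 12 groups at 29 dpi and in 4 of 12 at 3 dpi. At 3 dpi that sum was lowest in the library numbered 2 in 7 of 12 groups, and the highest level was in the library numbered 1 for Ly6c1 in 10 of 12 groups, for Ly6a in 9 and for Eng in 8.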
